A study of Mus musculus with 38 samples.

Results

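The comparison described here set epididymal fat samples of mice fed a high fat diet together with a plant formulation, KAL-1, against samples of mice on a low fat diet, without using the arrays of mice fed high fat alone. Each labelled array held total RNA of epididymal infiltrating macrophages (SVCs), that is, of the stromal vascular cells of the fat pad beside the testis, from C57BL/6J mice put on their diets at 3 to 4 weeks of age. The members were the 18 arrays of the groups HF5, HF20 and HF75 (6 arrays each, 1 per week at weeks 3, 6, 9, 12, 15 and 18) and the 6 LFC arrays of the same weeks, 24 of the 38 arrays of the series. LFC mice took 10% of calories from fat. HF5, HF20 and HF75 mice took 60% of calories from fat, with increased sucrose, plus 5, 20 or 75 µg of KAL-1. All 18 dose arrays therefore shared the high fat diet and the formulation, and no LFC mouse received KAL-1, so within these arrays the diet and the formulation cannot be told apart. Groups held 30 animals and 5 were killed every 3 weeks. The labels of HF5 and HF20 at weeks 15 and 18 contradict each other on the dose (title and source name against the diet field). The title and source name were followed here, so single-dose values of HF5 and HF20 depend on that choice, while the mean of the 3 doses does not.

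In fat tissue, de novo lipogenesis builds fatty acids from acetyl-CoA: Acly and Acss2 supply the acetyl-CoA, Acaca carboxylates it, Fasn elongates the chain, and Scd1 introduces the double bond. Dietary fat is known to lower this pathway, and sterol regulatory and carbohydrate response factors drive it. The stromal vascular cells of the same fat pad include resident and recruited macrophages, which signal through cytokines and through CC and CXC chemokines, and whose number is known to rise in obesity. In these bulk samples, fewer cells of a type and less RNA per cell cannot be told apart.

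A level here is the log2 processed signal of a probe minus the log2 75th percentile of its array, so 0 marks a probe as bright as that percentile, and a difference is the mean of the 3 dose arrays minus the LFC array of the same week. Of 18 general macrophage markers, all 18 were well above background on every LFC array and 17 or 18 on the dose arrays. Of 15 adipocyte markers, 14 or 15 were well above background on the LFC arrays and 13 to 15 on the dose arrays, so adipocyte transcripts were present beside those of the labelled macrophages. Arrays differed in brightness: the 75th percentile of the signal was 229.8 to 1537 on the LFC arrays (median 1059) and 25.8 to 1400 on the dose arrays (median 1006). The dose arrays were not separated from LFC in log2 brightness (difference -0.36, exact within-week permutation test, two-sided, p = 0.715) nor in the share of probes well above background (3.62 percentage points higher, exact p = 0.578). No LFC array shared a slide with a dose array of its week, so slide and diet cannot be told apart. At week 9 the LFC array had a different scan day from HF5, HF20 and HF75, and in the 10 dose and 5 LFC arrays that share week and scan day the list medians given later were -0.73 for de novo lipogenesis, -0.65 for adipocyte markers, 0.41 for general macrophage markers and 1.18 for inflammatory cytokines, with Scd1 at -1.15 and Arg1 at 2.15. On the HF75 array of week 12 the scanner software marked 6257 spots as outliers, against 15 to 75 elsewhere.

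No probe passed the test. Over 33599 probes, limma with week as a block called 0 (0%) at an adjusted p under 0.05, and the smallest adjusted p was 0.538. At an unadjusted p under 0.05, 1987 probes (5.91%) were higher and 897 (2.67%) lower in the dose groups, and the median difference of all probes was 0.08. The higher-to-lower split depended on the scaling and on the probes kept: it was 827 to 1379 after quantile normalization, which moved the median of all probes to -0.07, and 414 to 561 after normexp background correction. With only probes well above background on all 24 arrays it was 406 to 774. The methods' t-test gave 1340 probes at an unadjusted p under 0.05, 633 of them also with a 2-fold change, and 0 after Benjamini-Hochberg adjustment. What follows gives values of probes and gene groups that did not pass the adjusted threshold. Counts in the gene lists take 1 probe per gene. Over all genes taken that way, 13420 of 23986 were higher in the dose groups. At an unadjusted p under 0.05 in limma, 5.39% of them were higher and 2.86% lower, the shares to set beside the counts of each list.

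**Figure D1:**
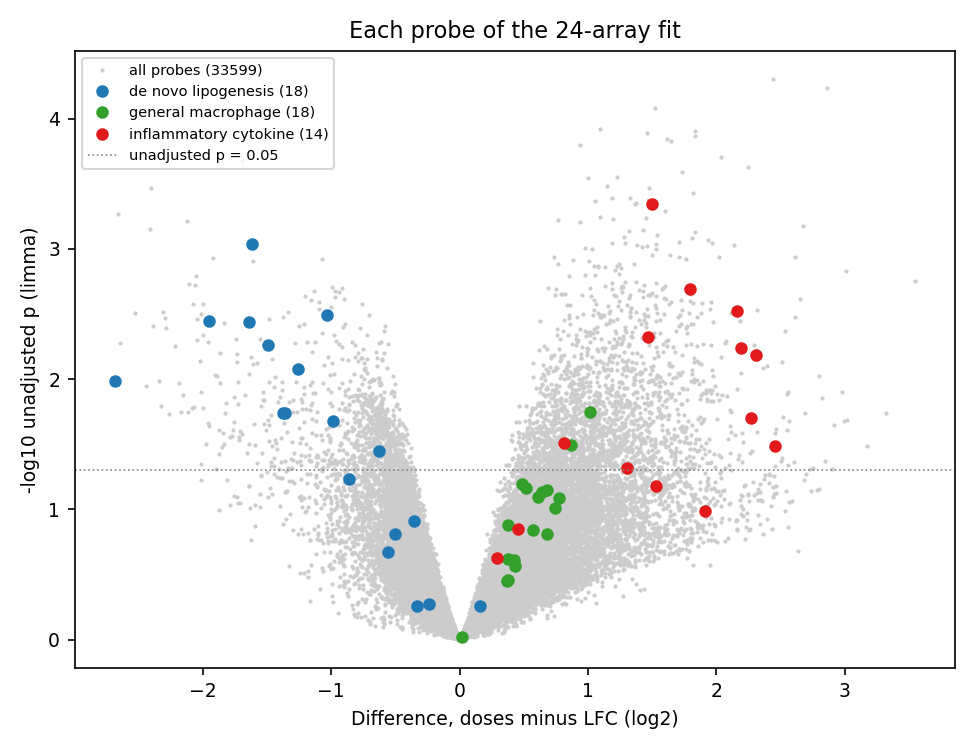
Each of the 33599 probes by its difference between the dose groups and LFC (x axis, log2) and by -log10 of its unadjusted limma p (y axis), with members of 3 gene lists in colour. Most of the 18 de novo lipogenesis genes lie left of 0, and all 14 inflammatory cytokine and all 18 general macrophage genes lie right of it, while no probe passed after adjustment.

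The lipogenic genes were lower in the dose groups. Of 18 de novo lipogenesis genes, 1 was higher and the others lower, with a median difference of -1.01. Of those lower, 11 had an unadjusted p under 0.05, against 2.86% of all genes. By week the list median was 0.02, -0.73, -2.69, -1.28, -0.07 and -0.75 from week 3 to week 18. The difference was thus concentrated at weeks 9 and 12, and without those weeks the median was -0.31 with 4 genes at an unadjusted p under 0.05. After quantile normalization and after normexp correction it was -1.13 each.

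The promoters of Fasn and Acss2, both among the probes of smallest p on the lower side, are shown because lipogenic genes share the CCAAT box bound by NF-Y beside sterol regulatory elements. They were taken from RefSeq (GRCm38.p6, 300 bases around the start, most of them before it, written 5′ to 3′ on the gene's strand), and capitals mark CCAAT on either strand (ATTGG on the reverse). Fasn lies on the minus strand at chr11:120824498-120824797 and Acss2 on the plus strand at chr2:155517793-155518092.
Fasn: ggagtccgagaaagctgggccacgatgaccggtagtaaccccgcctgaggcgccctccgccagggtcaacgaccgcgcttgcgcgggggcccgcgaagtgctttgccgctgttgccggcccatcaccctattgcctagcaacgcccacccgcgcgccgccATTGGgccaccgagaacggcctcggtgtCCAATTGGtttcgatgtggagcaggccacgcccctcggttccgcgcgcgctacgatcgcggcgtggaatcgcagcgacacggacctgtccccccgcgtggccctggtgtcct
Acss2: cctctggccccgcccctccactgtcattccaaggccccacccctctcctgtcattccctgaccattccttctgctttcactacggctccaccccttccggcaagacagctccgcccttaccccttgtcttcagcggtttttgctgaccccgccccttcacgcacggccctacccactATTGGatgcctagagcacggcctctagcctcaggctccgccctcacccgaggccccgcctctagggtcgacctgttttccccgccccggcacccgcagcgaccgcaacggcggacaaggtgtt
CCAAT was found, on either strand, in 11 of the 14 de novo lipogenesis promoters in the table and in 37.4% of all 32851 promoters. The sterol regulatory element TCACNCCAC was found in 1 of 14 (1.24% of all) and the E-box CACGTG in 3 of 14 (7.15% of all), neither of them in the 2 windows printed. These matches describe letters in a window, not bound sites.

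Scd1, the stearoyl-CoA desaturase, was lower in the mean of the dose arrays at each of the 6 weeks. Its level was 2.83 at the lowest, 3.81 at the median and 5.50 at the highest of the 6 LFC arrays, and 1.17, 2.21 and 5.66 over the 18 dose arrays. The ranges overlapped, but within weeks only 1 of 18 dose arrays, HF75 of week 12, lay above its LFC array. The weekly differences were -1.01, -0.55, -2.13, -2.03, -1.24 and -2.73, and the fitted difference was -1.62 (SE 0.41, unadjusted p = 0.000914, adjusted p = 0.546), or 3.06-fold lower. Without weeks 9 and 12 it was -1.38, and a second Scd1 probe gave -2.06.

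Fasn, the fatty acid synthase, ran from -1.78 (lowest) through 0.01 (median) to 5.18 (highest) in LFC and from -2.79 through -1.77 to 3.11 in the dose groups. Its 2 highest LFC values, 3.93 and 5.18, were those of weeks 9 and 12, and 2 of 18 dose arrays were above the LFC array of their week. The weekly differences of -0.12, -1.64, -6.07, -4.11, -0.33 and -2.18 gave a fitted -2.41 (SE 0.59, adjusted p = 0.546), which was -1.07 without weeks 9 and 12. Another Fasn probe, the one counted in the list, differed by -0.50 (SE 0.34, unadjusted p = 0.154), so the probes of this gene disagree in size.

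Acaca, acetyl-CoA carboxylase, had the single probe whose LFC array stood above all 3 dose arrays in all 6 weeks (1 of 33599, 0.00298%). Random placing of the LFC array within each week would put it above at every week in 1 of 4096 arrangements, a larger share. The smallest gap between LFC and the nearest dose array was only 0.007, and no other Acaca probe met the rule. Levels of the probe were -2.10, -1.62 and 3.88 (lowest, median, highest) in LFC and -4.07, -2.40 and 1.1 in the dose groups, overlapping between weeks but not within them. The weekly differences were -0.90, -0.51, -5.01, -4.53, -0.41 and -0.37, with a fitted -1.95 (SE 0.58, adjusted p = 0.546) and -0.55 without weeks 9 and 12. Other Acaca probes gave -0.90, -0.82 and -0.72.

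Dgat2, which attaches the last fatty acid of a triglyceride, differed by -1.03 (SE 0.30, unadjusted p = 0.00322). Among members picked after their values were seen, Thrsp, a nuclear protein that promotes lipogenesis, differed by -1.64 (SE 0.49) and by -1.28 without weeks 9 and 12. Pnpla3, a lipid droplet protein that follows sterol regulatory factors, differed by -2.68 (SE 0.94), with 1 of 18 dose arrays above LFC. Elovl6 differed by -1.49, Me1 by -1.26, Mlxipl, the carbohydrate response factor itself, by -1.37, and Srebf1 by -0.62. The only member on the higher side was Fads1, at 0.16 (SE 0.27). Acss2 and Pcx, outside the list but feeding the pathway, were also among the 10 probes of smallest p on the lower side. Acss2, the cytosolic acetyl-CoA synthetase, had levels of -3.13, -1.65 and 3.28 (lowest, median, highest) in LFC and -3.66, -2.81 and 0.45 in the dose groups, a fitted difference of -2.05 (SE 0.55) and -2.11 on a second probe. Pcx, pyruvate carboxylase, had levels of 1.04, 2.66 and 5.29 in LFC and -0.12, 0.88 and 5.18 in the dose groups, a fitted difference of -1.61 (SE 0.42).

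**Figure D2:**
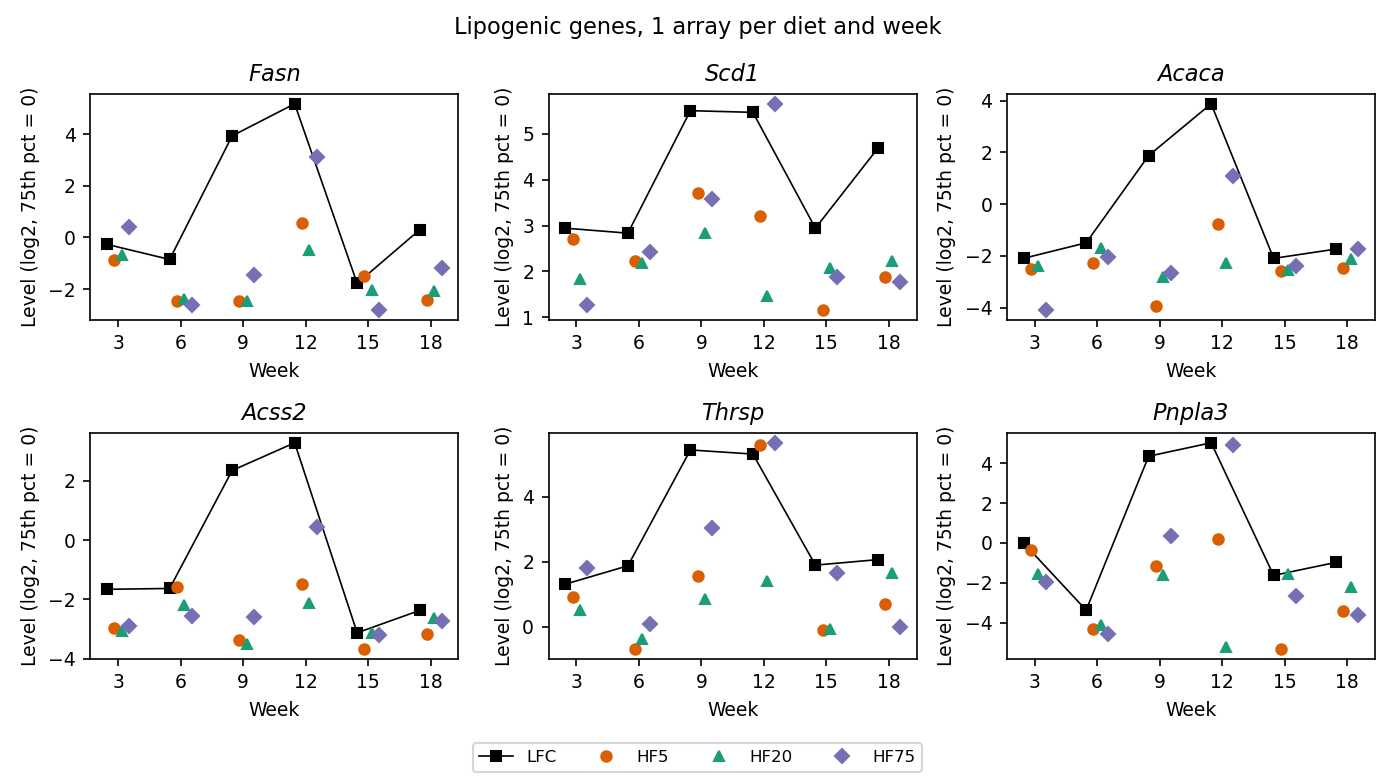
Level of 6 lipogenic genes (y axis, log2, array's 75th percentile at 0) by week (x axis), 1 point per array, with the LFC arrays joined by a line and the 3 dose groups as symbols. LFC peaks at weeks 9 and 12, where Fasn reaches 3.93 and 5.18, and Acaca has every dose point under the LFC point of its week.

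Adipocyte markers were also lower in most cases. Of 15 tested, 1 was higher in the dose groups, 3 were lower with an unadjusted p under 0.05, and the median difference was -1.10 (-0.47 without weeks 9 and 12 and -0.28 with array quality weights, each with 0 at an unadjusted p under 0.05). The log2 summed level of the 15 markers spanned 6.93 to 9.48 over the LFC arrays (median 8.15) and 6.41 to 10.81 over the dose arrays (median 7.33), so the ranges overlapped. Adipoq, adiponectin, differed by -1.21 (SE 0.66) and Plin1, the perilipin that coats the adipocyte lipid droplet, by -1.72 (SE 0.73, unadjusted p = 0.0293). Retn, resistin, differed by -2.11 (SE 0.81). By week the median was 0.46, 0.18, -2.19, -1.75, -1.15 and -1.83, so at weeks 3 and 6 it was above 0. The de novo lipogenesis list had medians of 0.02 and -0.73 at those weeks. The part of adipocyte content in the lipogenic differences was not tested.

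**Figure D3:**
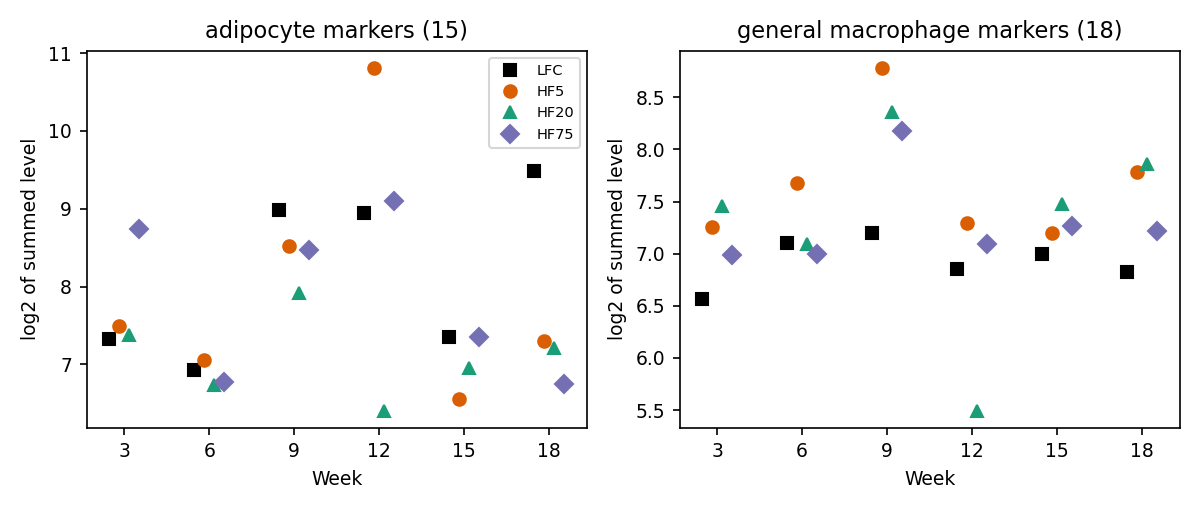
Log2 of the summed level (y axis) of 15 adipocyte markers (left) and 18 general macrophage markers (right) by week (x axis), 1 point per array. Adipocyte sums overlap between LFC (6.93 to 9.48) and the dose groups (6.41 to 10.81), and the lowest macrophage sum, 5.49, is the HF20 array of week 12.

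Other lipid lists followed in part. Of 17 lipid droplet and lipolysis genes, 3 were higher and 14 lower, 2 of the latter with an unadjusted p under 0.05 (median -0.83, and -0.28 without weeks 9 and 12). Of 22 cholesterol synthesis genes, 4 were higher, and 5 of those lower reached that threshold (median -0.44), but without weeks 9 and 12 the median was 0.05. Insig1, which holds the sterol sensor in the endoplasmic reticulum, differed by -1.01 and Dhcr7, a reductase late in the pathway, by -0.78. The 4 fat mass expansion genes had a median of -1.52 that was 0.13 without weeks 9 and 12. Of 16 insulin signalling and glucose uptake genes, 4 were higher, 4 of those lower had an unadjusted p under 0.05, and the median was -0.31 (-0.18 with 0 such genes without weeks 9 and 12, and -0.07 with 0 on the shared scan day). Slc2a4, the insulin-responsive glucose transporter, differed by -1.14 (SE 0.41). Insr, the insulin receptor, differed by -0.57 on the probe counted and by 0.80 (unadjusted p = 0.0543) on another, and Irs1 by -0.79 and 0.01, so the probes of these genes disagree.

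Macrophage markers were on the higher side. All 18 general macrophage genes were higher in the dose groups, with a median difference of 0.55. Of them 2 had an unadjusted p under 0.05, against 5.39% of all genes. By week the median was 0.54, 0.63, 1.15, -0.62, 0.54 and 0.85, below 0 only at week 12, and without weeks 9 and 12 it was 0.67 with 6 genes at an unadjusted p under 0.05. The number at that threshold depended on 1 array and on the setting: it was 15 (median 0.77) without the LFC array of week 12, 9 with array quality weights and 0 (median 0.29) with scan day as a block. The log2 summed level spanned 6.57 to 7.20 over the LFC arrays (median 6.92) and 5.49 to 8.78 over the dose arrays (median 7.28). Cd68, a lysosomal glycoprotein of macrophages, had levels of -1.56, -0.35 and 0.99 (lowest, median, highest) in LFC and -1.83, 0.54 and 2.39 in the dose groups, with 15 of 18 dose arrays above LFC. Its fitted difference was 1.02 (SE 0.39, unadjusted p = 0.018, adjusted p = 0.564) and 1.34 without weeks 9 and 12. Adgre1, the F4/80 antigen, differed by 0.58 (SE 0.38) on the probe counted in the list and by 1.19 (SE 0.29) on another. Cd14, the lipopolysaccharide co-receptor, differed by 0.87 (SE 0.37).

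The markers of alternative activation, the program of interleukin 4 exposed macrophages, were higher in all 11 cases, 5 with an unadjusted p under 0.05, with a median of 0.82 and of 0.79 without weeks 9 and 12. Arg1, arginase 1, which competes with nitric oxide synthase for arginine, had levels of -7.93, -6.01 and -3.78 in LFC and -6.31, -2.91 and 0.96 in the dose groups (lowest, median, highest), and 17 of 18 dose arrays were above their LFC array. The fitted difference was 3.01 (SE 0.80, unadjusted p = 0.00147, adjusted p = 0.546), and 3.08 without weeks 9 and 12. Only 2 of 6 LFC arrays and 15 of 18 dose arrays were well above background for Arg1, and after normexp correction the difference was 0.76. Il10, an anti-inflammatory cytokine, differed by 2.31 (SE 0.67, 17 of 18 dose arrays above LFC), but by 0.79 without weeks 9 and 12. Mrc1, the mannose receptor, differed by 0.37 (SE 0.32). Of 14 lipid-associated macrophage genes, which mark the Trem2 macrophages of obese fat, 11 were higher, with a median of 0.32. Among them Spp1, osteopontin, differed by 1.83 (SE 0.63), Cd63 by 0.44 (SE 0.21), Cd9 by 0.62 (SE 0.43), and Trem2 itself by 0.25 (SE 0.27).

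The inflammatory cytokines had the largest median of the lists described. All 14 were higher in the dose groups, 10 with an unadjusted p under 0.05 against 5.39% of all genes, and the median was 1.66. By week the median was 0.39, 0.52, 5.12, 3.37, -0.04 and 0.83, and without weeks 9 and 12 it was 0.46 with 3 genes at an unadjusted p under 0.05. Tnf, the tumour necrosis factor, differed by 2.30 (SE 0.75), with weekly differences of 0.97, 0.45, 7.58, 2.67, -0.13 and 2.27, and by 0.89 without weeks 9 and 12. Il1b differed by 2.19 (SE 0.70) and by 0.52 without those weeks. Il12a, a subunit of interleukin 12 that was well above background on only 14 of 24 arrays, differed by 1.5 (SE 0.35, unadjusted p = 0.000457, 17 of 18 dose arrays above LFC). Osm, oncostatin M, differed by 1.79 (SE 0.49). The immediate early genes, which are induced within minutes of stimulation or tissue handling, were on the higher side beside them. All 17 were higher (median 1.1, 8 at an unadjusted p under 0.05), with weekly medians of 4.13 and 2.64 at weeks 9 and 12 and -0.25 when those weeks were left out. Fos differed by 6.97 at week 9 and by -0.22 in the fit without weeks 9 and 12. The part of immediate early induction in the cytokine differences was not tested.

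The chemokines described next begin with the CXC members Cxcl3 and Cxcl2, which attract neutrophils. Their promoters (RefSeq, GRCm38.p6, plus strand, Cxcl3 at chr5:90785851-90786150 and Cxcl2 at chr5:90903649-90903948) are shown because these neighbouring genes are known NF-kappaB targets. Capitals mark a form of the NF-kappaB motif, GGG followed by 2 bases of any kind and TTTCC, searched on both strands.
Cxcl3: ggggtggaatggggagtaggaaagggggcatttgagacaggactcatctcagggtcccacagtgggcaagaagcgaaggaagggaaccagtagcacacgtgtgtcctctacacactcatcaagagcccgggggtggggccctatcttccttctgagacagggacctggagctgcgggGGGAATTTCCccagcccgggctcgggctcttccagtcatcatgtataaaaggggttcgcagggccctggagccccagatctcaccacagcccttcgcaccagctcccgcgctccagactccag
Cxcl2: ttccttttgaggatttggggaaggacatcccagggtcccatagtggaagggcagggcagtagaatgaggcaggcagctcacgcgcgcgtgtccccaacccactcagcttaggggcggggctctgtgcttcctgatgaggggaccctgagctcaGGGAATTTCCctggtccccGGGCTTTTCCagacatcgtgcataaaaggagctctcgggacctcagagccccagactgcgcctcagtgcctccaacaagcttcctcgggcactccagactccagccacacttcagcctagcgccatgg
The motif was present in 3 of the 11 CXC chemokine, 1 of 10 CC chemokine and 3 of 12 inflammatory cytokine promoters in the table, and in 1.63% of all promoters.

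Cxcl3 ran from -8.82 through -6.64 to -3.61 in LFC and from -6.30 through -3.46 to -0.31 in the dose groups (lowest, median, highest), with 16 of 18 dose arrays above LFC. It was well above background on 2 of 6 LFC and 15 of 18 dose arrays. Its fitted difference was 2.86 (SE 0.55, unadjusted p = 5.87e-05, adjusted p = 0.538), but 1.75 without weeks 9 and 12 and 0.75 after normexp correction. Cxcl2 differed by 3.54 (SE 0.97), with 10.12 at week 9 and 6.85 at week 12, and by 1.07 without those weeks. Of 14 CXC chemokines 12 were higher, 6 with an unadjusted p under 0.05 (median 0.67, and 0.23 without weeks 9 and 12). Cxcl9, an interferon-induced member, was on the other side at -0.69 (SE 0.46). Of 16 CC chemokines 14 were higher, 5 at an unadjusted p under 0.05 (median 0.74, and 0.38 without weeks 9 and 12). Ccl2, the monocyte attractant, had levels of 0.27, 2.93 and 4.89 in LFC and 1.45, 4.76 and 6.08 in the dose groups (lowest, median, highest), with 15 of 18 dose arrays above LFC. Its difference was 1.60 (SE 0.38, unadjusted p = 0.000513) and 0.96 without weeks 9 and 12. Ccl3 differed by 2.61 (SE 0.77) and Ccl7 by 1.71 (SE 0.50). Of 14 Toll-like receptor genes 10 were higher (median 0.33), with Tlr2 at 0.91 (SE 0.33) and Tlr1 at 0.61 (SE 0.29).

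**Figure D4:**
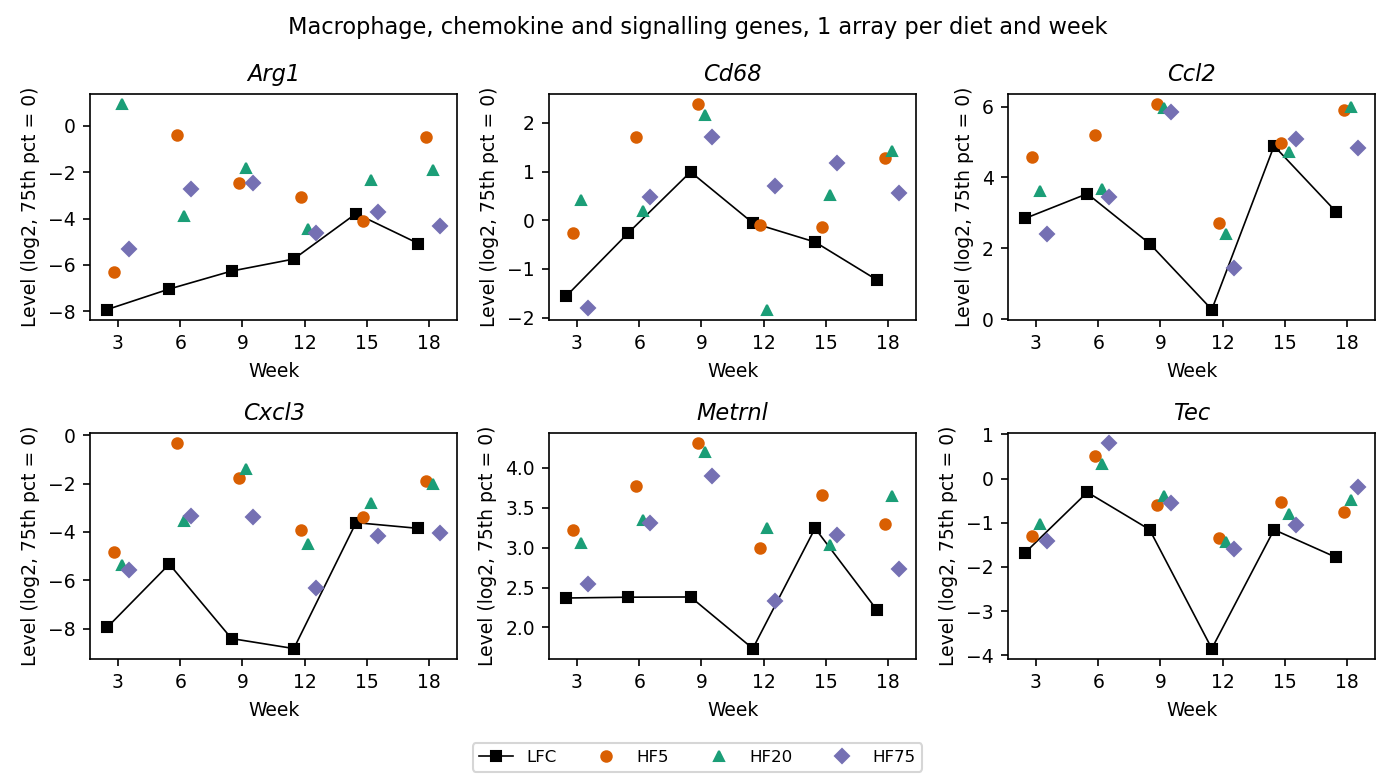
Level of 6 macrophage, chemokine and signalling genes (y axis, log2, array's 75th percentile at 0) by week (x axis), 1 point per array, with LFC joined by a line. For Tec all 18 dose points lie above the LFC point of their week, and for Arg1 17 of 18 do.

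Markers of other immune cells were mostly higher too. All 10 NK and cytotoxic genes were higher, 7 with an unadjusted p under 0.05 against 5.39% of all genes. The median was 1.11, and 0.50 with 1 such gene without weeks 9 and 12. It was 0.73 with 2 such genes after quantile normalization. Klrk1, the NKG2D receptor, differed by 1.15 (SE 0.40), Ncr1, the NKp46 receptor, by 1.15 (SE 0.48), and the transcription factors Eomes and Tbx21 by 1.60 and 1.15. Of 8 mast cell genes 7 were higher, 5 with an unadjusted p under 0.05. Their median was 0.97, and 0.87 without weeks 9 and 12. On the shared scan day it was 0.36 with 0 such genes, and after normexp correction 0.45. After quantile normalization it was 0.78 with 3 such genes. Cpa3, the mast cell carboxypeptidase, differed by 1.29 (SE 0.43) and Hdc, which makes histamine, by 0.99 (SE 0.32), whereas Kit, the stem cell factor receptor, differed by -0.47 (SE 0.25). Of 11 neutrophil genes 9 were higher, 3 at that threshold (median 1.15, and 0.61 with 0 such genes without weeks 9 and 12), with S100a8 at 1.15 (SE 0.79), S100a9 at 1.51 (SE 0.80) and Mmp8, neutrophil collagenase, at 2.04 (SE 0.66). All 15 T cell genes (median 0.68) and 10 of 11 B and plasma cell genes (median 0.91) were higher. Their medians without weeks 9 and 12 were 0.24 and 0.09. After quantile normalization they were 0.24 and 0.62, with 1 T cell gene at an unadjusted p under 0.05 against 3 in the reported fit. Cd3e, of the T cell receptor complex, differed by 0.20 (SE 0.33).

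**Figure D5:**
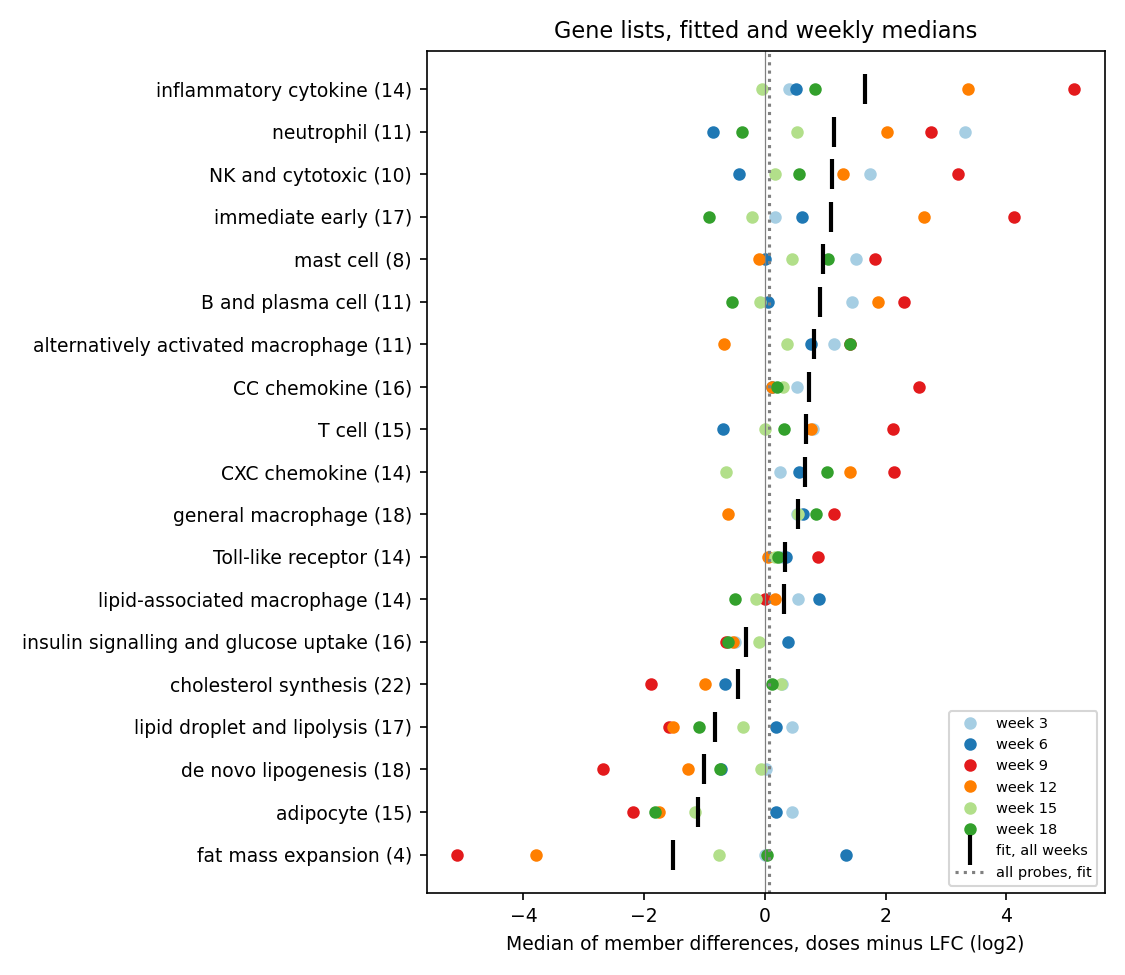
Median difference between the dose groups and LFC over the members of 19 gene lists (x axis, log2), with the fitted median as a bar and the 6 weekly medians as points, and the number of genes tested in brackets. Week 9 gives the point farthest from 0 in most lists, and the general macrophage median is below 0 only at week 12.

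The 10 probes of smallest p on the higher side were those of Gpr84, Cxcl3, Aqp3, Mex3c, Ston2, Clnk, Rhov, C5ar1, Wnt10b and Metrnl, each with an adjusted p of 0.538. All but Aqp3 and Metrnl were well above background on at most 2 of 6 LFC arrays and so entered the test through the dose groups where they are high, so their place in this ranking is partly set by the filter. Gpr84, a receptor for medium-chain fatty acids on myeloid cells, ran from -8.64 through -6.23 to -5.58 in LFC and from -5.59 through -4.07 to -3.27 in the dose groups. Its ranges met at only 1 dose array, and 17 of 18 dose arrays were above LFC. The difference was 2.44 (SE 0.46), but only 1 of 6 LFC arrays was well above background, and normexp correction brought it to 0.53. Metrnl, a secreted protein of fat tissue and macrophages, was, of the 10, the only probe well above background on all 24 arrays. Its levels were 1.73, 2.37 and 3.24 in LFC and 2.33, 3.27 and 4.32 in the dose groups, 16 of 18 dose arrays were above LFC, and the difference was 0.93 (SE 0.20), between 0.68 and 1.11 under 42 alternative settings. C5ar1, the complement C5a receptor of myeloid cells, differed by 1.61 (SE 0.34), with 17 of 18 dose arrays above LFC, and Clnk, an adaptor of immune receptor signalling, by 1.46 (SE 0.30), with 18 of 18. C5ar1 was well above background on 13 of 24 arrays and differed by as little as 0.23 under an alternative setting. Clnk was well above background on 2 of 6 LFC arrays, its difference was as low as 0.43 under an alternative setting, and a second Clnk probe differed by -0.05. Aqp3, a water and glycerol channel, differed by 1.52 (SE 0.30, over 23 arrays with a value), Mex3c, an RNA-binding ubiquitin ligase, by 1.09 (SE 0.22), and Rhov by 1.83 (SE 0.37). Under alternative settings Mex3c was as low as 0.27 and Rhov as low as 0.44, and a second Mex3c probe, well above background on all 24 arrays, differed by -0.04 (unadjusted p = 0.871). Ston2 and Wnt10b were not well above background on any LFC array. For LFC the dimmest signal well above background on each array was taken, or the probe's own where higher. Set against that, Ston2 (1.53 on a second probe) was 2.87-fold and Wnt10b, a ligand that restrains adipogenesis, 2.42-fold higher in the dose groups. Dose arrays not well above background stayed in the mean. Under alternative settings the log2 differences were as low as 0.31 for Ston2 and 0.26 for Wnt10b, so these folds are not lower bounds.

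On the lower side the 10 were Atp4b, B3galt2, Fasn, Scd1, Arxes2, Gm9022, Pcx, Acss2, 5033425G24Rik and Slc25a16, each with an adjusted p of 0.546. Atp4b, the beta subunit of the gastric proton pump, was lower in the mean of all 6 weeks (-1.70, SE 0.37), but was well above background on 4 of 6 LFC and 8 of 18 dose arrays. B3galt2, a galactosyltransferase, differed by -2.66 (SE 0.63) and on a second probe by -2.12. Arxes2, an adipocyte protein of the endoplasmic reticulum, differed by -1.92 (SE 0.50), and Slc25a16, a mitochondrial carrier, by -0.91 (SE 0.25).

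A count without a model asked where the LFC array lay outside all 3 dose arrays of its week at each of the 6 weeks. LFC was below in 15 of 33599 probes (0.0446%) and above in the 1 probe of Acaca. If the place of the LFC array within each week were random, 1 of 4096 arrangements would put it below at every week. The share for above is the same. Over all probes tested, random placing thus gives a total near the 16 found, so membership alone is no sign of a diet difference. Of the 15, those with the widest smallest gap were Nefm, Fez1, Adgre1, Shc2, Tec, Trim13, Wnt10b and Ppl. Tec, a kinase of haematopoietic cells, had levels of -3.85, -1.42 and -0.31 in LFC and -1.60, -0.68 and 0.81 in the dose groups, with a difference of 0.999 (SE 0.22) that ranged from 0.71 to 1.13 under 42 alternative settings. Ppl, periplakin, differed by 0.88 (SE 0.23), from 0.65 to 0.97 over those settings. Fez1, an adaptor of axonal transport, differed by 0.76 (SE 0.23) and had a second probe among the 15 at 0.80. Nefm, a neurofilament subunit, differed by 1.13 (SE 0.31), Shc2, a receptor adaptor, by 1.22 (SE 0.27), and Trim13, a ubiquitin ligase, by 0.83 (SE 0.24). Second probes of Tec and Ppl differed by 1.17 and 1.05. Second probes of Shc2 (unadjusted p = 0.999) and Trim13, each well above background on all 24 arrays, differed by 0.00 and 0.13, and the probes counted here were as low as 0.30 for Shc2 and 0.27 for Trim13 under alternative settings. Also among the 15, named after their values were seen, was a probe of Lgals3, galectin 3, at 0.75, while another Lgals3 probe differed by 0.32. After normexp correction the whole count was 3.

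The 3 doses, which share the LFC arrays, gave the following values side by side. limma called 0 probes for each, with smallest adjusted p of 0.418 in HF5, 0.628 in HF20 and 0.9999 in HF75, and with 3780, 2570 and 1062 probes at an unadjusted p under 0.05. In the same order of doses the median of the lipogenesis list was -1.18, -1.20 and -0.66, that of the inflammatory cytokines 2.0, 1.85 and 1.39, and that of the general macrophage list 0.76, 0.46 and 0.48. Scd1 differed by -1.58, -1.96 and -1.30, Fasn by -2.62, -2.78 and -1.83, Arg1 by 3.17, 3.74 and 2.11, and Cxcl3 by 3.65, 3.05 and 1.87. Differences between doses were not tested here. The probes of smallest p for a single dose included Adam33, a metalloprotease, at 1.72 and Fsd2 at -3.25 in HF20, and Stx3, a membrane fusion protein, at 2.03 and Atxn7l1 at -0.86 in HF75. Other probes disagreed: those of Stx3 gave 0.98, 0.12 and -0.29 in HF75, and a second Atxn7l1 probe gave 0.29. A fit of the change of the difference with week called 0 probes (smallest adjusted p 0.820, 1938 at an unadjusted p under 0.05). Angptl4, an inhibitor of lipoprotein lipase, was among the 4 probes of smallest p there, with weekly differences of 1.56, 2.08, 0.74, -0.65, -0.32 and -1.92. The others were Lrrc3b, with a difference that also moved down with week, and Atp6v0a4, a proton pump subunit, and Ccdc138, whose differences moved up.

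High fat without the formulation could be set against LFC in arrays that share none with the comparison above: HFC and LFC of days 6, 10 and 14 and of week 0 (8 arrays, 1 per diet and labelled time). The paper, on liver of the same experiment, counts weeks from day 14 and so treats day 14 and week 0 as the same time. limma called 0 of 32751 probes there (smallest adjusted p 0.0767, 3999 at an unadjusted p under 0.05). Of the 20 named probes, 18 had the same sign in both comparisons (10 of 10 higher and 8 of 10 lower), against 55.0% of the 32003 probes in both fits. Among the 2844 probes in both with an unadjusted p under 0.05 in the dose comparison it was 68.2%. Scd1 differed by -1.65 (SE 0.25) between HFC and LFC there, with -1.50, -1.79, -2.13 and -1.18 at the 4 labelled times. Acaca differed by -1.14, Fasn by -1.61 on the same probe, Acss2 by -0.97, Pcx by -1.80 and Thrsp by -2.26 (SE 0.52). The lipogenesis list had a median of -0.76, with 8 of 17 genes lower at an unadjusted p under 0.05. Adipocyte markers were lower too, with a median of -1.14 and 11 of 15 at that threshold, beside epididymis markers with a median of 5.34 and mesothelial markers with a median of 4.36. Arg1 differed by 2.93 (SE 1.33), with 6.71, 4.93, 0.47 and -0.40 at the 4 labelled times, Ccl2 by 1.77 (SE 0.72), and Ppl by 2.40. Cd68 differed by 0.75, and 15 of 18 general macrophage genes were higher, with a median of 0.34. The inflammatory cytokine list had a median of 0.83 with 13 of 14 genes higher, though Il1b differed by 0.00 (SE 0.48). Some of the 19 lists described had a median of opposite sign to that in the dose comparison. They were mast cell (-0.11), T cell (-0.27), B and plasma cell (-0.59), immediate early (-0.17) and cholesterol synthesis (0.14). Some lists outside these 19 also had opposite signs, among them the interferon-stimulated and cytosolic ribosomal protein lists. The difference between the comparisons was not tested.

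The remaining 32 of 51 gene lists had medians between -0.67 (skeletal muscle) and 1.42 (testis and sperm), and 19 of them were above 0. The testis and sperm median was reached with 0 of 14 genes at an unadjusted p under 0.05, and their log2 summed level spanned 0.16 to 5.37 over LFC and 0.16 to 8.53 over the dose arrays. Epididymis markers, transcripts of the neighbouring duct, spanned -2.23 to 7.68 over LFC and -3.49 to 9.57 over the dose arrays. Both groups thus held arrays with low and with high levels, and every array had some members well above background (at least 5 of 16 on LFC arrays, 2 on dose arrays). Within weeks the groups were not balanced. The epididymis median difference ran from -7.24 at week 6 to 6.66 at week 12. That of testis and sperm ran from -4.57 at week 6 to 5.76 at week 9, and that of mesothelial markers was -4.56 at week 6. The part of these tissues in the other differences was not tested.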

How the data were processed

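RNA of epididymal stromal vascular cells was hybridised to 1-colour (Cy3) Agilent arrays, 1 array per diet and time. The series text speaks of 3 biological replicates, but whether an array held RNA of 1 mouse or of several is not given in the sources used here, so p-values measure the spread between arrays. Per the labels, signals came from Agilent Feature Extraction (version 9.1 in the submitters' processing notes, 10.5.1.1 in the file headers). The deposited intensity used here is the processed signal, already background-subtracted by the authors' scanner software. The deposited series table holds log2 ratios to LFC, with scale and centring found by matching: each of the 18 dose columns correlated with the scanner values at r of 0.992 or more, and at least 98.8% of probes agreed within 0.1. It was used as an alternative only. Every column of that table could be mapped to a sample.

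Levels were log2 processed signals minus the array's log2 75th percentile over non-control spots. Spots marked as outliers were left out and spots of a probe averaged. Of 40628 probes, 82.8% matched the gene table. A probe was tested (33599) if well above background on at least a 0.5 share of the arrays of at least 1 diet, and 4074 of these lack a value on at least 1 array, where the fit used the rest. limma 3.58.1 (R 4.3.3) was fitted to 24 arrays with diet in 4 levels and week as a block (15 residual degrees of freedom, median residual SD 0.754), contrasting the mean of 3 doses with LFC. P-values were adjusted by Benjamini-Hochberg over all probes. The fit was tested on simulated data. Slides, scan days and brightness were compared as technical batches. Array number limits the precision, and residual spread sets the size of difference that can be seen.

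Named probes were, with a gene symbol and well above background on at least 12 arrays, the 10 of smallest p in each direction, up to 8 per direction of those with LFC outside all doses at 6 of 6 weeks, the first 2 members and 2 of smallest p of each list described, and the 2 of smallest p per single dose and for the change with week. Other members named were chosen after their values were seen. The members and lists were chosen with earlier results of these data known. Lists (51, with 746 tested members) took the probe of highest mean level per gene. Alternatives were 39 planned and 3 added after seeing the data.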

Additional observations from a re-analysis of the deposited data

Results flagged for a closer look

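Of 55 groups of 6 values examined with Dixon's criterion (4 diets and the weekly differences of lists and named probes), 8 had a value far from the other 5, and chance flags about 1 in 20 groups. In log2 brightness (75th percentile of the array) these were LFC of week 18 at 7.84, HF5 of week 12 at 4.69 and HF75 of week 3 at 6.47, each dimmer than the other arrays of its diet. HF5 of week 12 also had the lowest share of probes well above background, 40.1%. Of the weekly list medians, CC chemokines stood apart at week 9 with 2.56, Toll-like receptor genes at week 9 with 0.88, and general macrophage genes at week 12 with -0.62, the last against differences above 0 in the other 5 weeks. Trim13 differed by 2.05 at week 18, above its other weekly differences.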

How the results depend on the processing

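limma called 0 probes in every comparison (mean of doses, single doses, change with week) under each of the alternatives that were run. The 28 named probes of the dose comparison kept their direction and stayed above the threshold in 41 or 42 settings each. What did depend on the processing was the number of probes at an unadjusted p under 0.05, 2884 in the reported fit. Without the week block (no pairing of arrays by week) it was 1222. LFC and dose arrays of a week carry no shared replicate number, so week is the pairing. With scan day as the block it was 777, and with only the dose arrays scanned on the LFC day of their week (10 dose and 5 LFC arrays) 517. It was 975 after normexp correction, 1180 with probes well above background on all 24 arrays, 1288 from 6 weekly differences, 1283 from the series table, 1340 by the methods' t-test and 1303 without weeks 9 and 12. Leaving out 1 array in turn gave 1355 to 4295, lowest without the LFC array of week 9. Without the LFC array of week 12 it was 1820. The number of probes with LFC outside all doses at every week, 16, was 3 after normexp correction and 6 with the strict filter. Settings with fewer weeks or dose arrays have less to satisfy, so the number rises by construction: 190 on the LFC scan day only, 158 without weeks 9 and 12, 55 without the 2 dimmest arrays, 588 without both, and 17 to 157 when 1 array was left out. Brightness, -0.36 log2 for the dose arrays, ran from -0.83 to 0.031 when 1 week was left out and reversed without week 12, and the share well above background from 0.60 to 5.02 percentage points. List medians reversed for cholesterol synthesis (0.048) without weeks 9 and 12, for fat mass expansion (0.13 without weeks 9 and 12, 0.22 also without the 2 dimmest arrays), for immediate early genes (-0.25 in both settings) and for B and plasma cells (-0.024 without weeks 9 and 12 and the 2 dimmest arrays). Array quality weights kept the direction of all 19 lists described but moved medians to -0.28 for adipocyte markers, -0.52 for de novo lipogenesis (5 genes at an unadjusted p under 0.05) and 0.36 for immediate early genes (1 gene). The cause of the reversals and of these smaller medians was not tested.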
